A study of Mus musculus with 4 samples.

Results

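Expression of 9 genes that make nitric oxide or handle arginine was examined in the liver of mice with diet-induced steatohepatitis. They were Nos2, Gch1, Slc7a2, Arg1, Arg2, Cps1, Otc, Ass1 and Asl, taken by symbol from the 24346 genes listed in the data. The set was chosen by a comparison of 7KC with control livers in these same libraries, in which Nos2 stood out, so the values of that comparison are given below for the 9 genes as a description and without a test. All were male C57BL/6 mice that, from 8 weeks of age, received the NASH diet, a diet rich in fat, cholesterol and sucrose with bile salt, for 3 weeks before the liver was taken. The control group (n = 2) received this diet alone and the 7KC group (n = 2) received it with 7-ketocholesterol, an oxidized derivative of cholesterol. Both groups therefore had the steatohepatitis-inducing diet, and no liver on normal chow was analysed here. The labels do not say whether the 2 libraries of a group came from separate animals, so the spread between them may be technical.

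Arginine stands at a fork in metabolism. Nitric oxide synthases oxidize it to citrulline and nitric oxide with tetrahydrobiopterin (BH4) as a cofactor, and the inducible enzyme, Nos2, is switched on in macrophages and hepatocytes by interferon-gamma together with inflammatory cytokines. Arginases split it to ornithine and urea, and in hepatocytes Arg1 closes the urea cycle, which detoxifies ammonia through Cps1, Otc, Ass1 and Asl. Ass1 and Asl also rebuild arginine from the citrulline that nitric oxide synthases release, so both branches share them. Gch1 makes the first committed step toward BH4, Slc7a2 carries arginine into the cell, and Arg2 is the mitochondrial arginase.

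By the estimate used here, the depth behind the values was 17100000 (control replicate 1) and 13800000 (control replicate 2) reads without 7KC. With 7KC it was 13600000 (7KC replicate 1) and 13700000 (7KC replicate 2) reads. This depth can differ from the mapped total if libraries were scaled to each other. Values were FPKM, a fragment count scaled by the length of the exons of a gene and by the size of its library. Whether libraries were also scaled to each other is not given in the sources used here. The median over genes of the level in a library, relative to the geometric mean of the libraries, was 0.99 to 1.01. Changes are given as log2(FPKM + 0.5), 7KC minus control, with standard errors from limma. The summed FPKM of a library was 685000 and 671200 in the control group and 619800 and 557100 in the 7KC group. Rescaling each library to the same sum moved the median log2 change of the 12299 tested genes from -0.03 to 0.17, so each direction below was also read on that scale. Control replicate 1 was about as close to 7KC replicate 1 (r = 0.979 across genes, which are not replicates) as to control replicate 2 (r = 0.980). Of the markers of periportal hepatocytes, 7 of 7 were higher in control replicate 1 than in control replicate 2, and of pericentral markers 0 of 7 were, with median ratios of 2.05 and 0.634. The liver label was checked against hepatocyte markers, led by Alb at 18988 to 41547 FPKM, and of 7 markers of exocrine pancreas 4 were listed at 0 in every library, Ctrb1 and Cela3b were above 0 in 1 library each, and Cela1 was at 4.92 to 12.7 FPKM.

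Nos2 had the largest difference of the 9 genes. Nos2 (chr11:78920787-78960254, plus strand, mm10) was at 0.797 and 0.495 FPKM in the controls and at 10.3 and 6.64 FPKM with 7KC. Both 7KC libraries lay far above both control libraries, and the lower 7KC value was more than 8 times the higher control value. The group means were 0.646 ± 0.214 and 8.47 ± 2.58 FPKM (SD, n = 2 each), a ratio of 13.1. On the log2(FPKM + 0.5) scale the difference was 2.95 (SE 0.26), and it was 3.35 after rescaling to the same sum and 2.81 after quantile normalization. In estimated reads, Nos2 had 54.6 and 27.2 in the controls and 561 and 364 with 7KC. Counting alone then gives a coefficient of variation of 13.5% and 19.2% in the controls and of 4.22% and 5.24% with 7KC. With each library left out in turn the log2 difference ranged from 2.65 to 3.25. Among the tested genes the level of Nos2 in FPKM had a percentile of 7.19 and 3.33 in the controls and of 61.1 and 48.8 with 7KC.

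The constitutive synthases were at low levels in both groups. The endothelial enzyme Nos3 was at 0.889 and 1.29 FPKM in the controls and at 0.722 and 1.07 FPKM with 7KC, with overlapping groups and a log2 difference of -0.19 (SE 0.23, limma adjusted p = 0.709). The neuronal enzyme Nos1 was at or near 0 in every library, with 0.0531 FPKM as its highest value, and was too low to test. Nos2 accordingly made up 47.3% and 27.4% of the summed FPKM of the 3 synthases in the controls and 93.4% and 85.6% with 7KC. The ratio of Nos2 to Nos3, both per length, was 0.897 and 0.385 in the controls and 14.3 and 6.23 with 7KC.

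**Figure D1:**
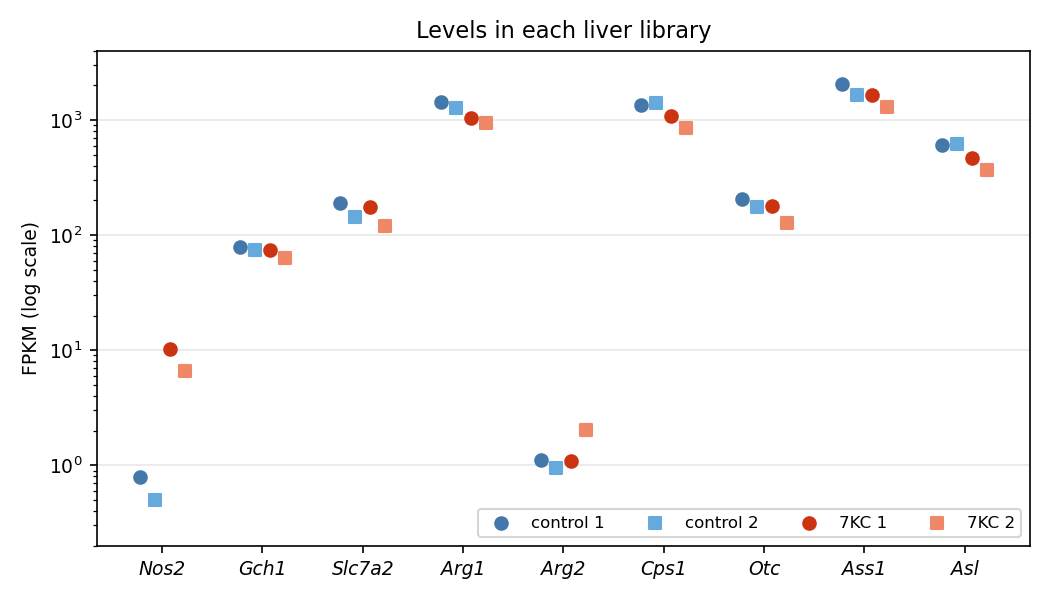
FPKM (log scale) of the 9 genes in each of the 4 liver libraries, with circles for replicate 1 and squares for replicate 2 of the control (blue) and 7KC (red) groups. Nos2 moves from 0.495 to 0.797 FPKM in the controls to 6.64 to 10.3 FPKM with 7KC, while the 5 urea cycle enzymes lie between 127 and 2040 FPKM.

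Neither the cofactor enzyme nor the transporter separated the groups. Gch1 (chr14:47153895-47189413, minus strand), GTP cyclohydrolase, was at 78.6 and 73.7 FPKM in the controls and at 74.1 and 62.7 FPKM with 7KC. These groups overlap, with a log2 difference of -0.16 (SE 0.13) that turned to 0.05 after rescaling to the same sum. Gchfr encodes the feedback regulator that restrains Gch1, and the ratio of Gch1 to Gchfr was 0.385 and 0.424 in the controls and 0.414 and 0.437 with 7KC. Slc7a2 (chr8:40862396-40922308, plus strand), a cationic amino acid transporter, was at 191 and 143 FPKM in the controls and at 174 and 120 FPKM with 7KC. The higher library of each group was replicate 1, the groups overlap, and the log2 difference of -0.19 (SE 0.24) turned to 0.01 after rescaling to the same sum. It was also 0.01 without control replicate 1 and 0.08 without 7KC replicate 2, so Slc7a2 had no stable direction.

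The promoter of Gch1 is shown because Gch1 is the only gene of the nitric oxide branch among the 9 with a start-site sequence in the RefSeq table used (GRCm38.p6), which held 3 of the 9 genes. The 250 bases before its start site lie at chr14:47189414-47189663 on the minus strand. On both strands they were searched for the kappaB decamer bound by NF-kB, the GAS element, the interferon-gamma activated site (TTCNNNGAA), the core of the interferon-stimulated response element, a CEBP site (TTGCNNAA), an HNF4 site (CAAAGTCCA) and the TATA box (TATAAA), and matches are in capitals.
Gch1: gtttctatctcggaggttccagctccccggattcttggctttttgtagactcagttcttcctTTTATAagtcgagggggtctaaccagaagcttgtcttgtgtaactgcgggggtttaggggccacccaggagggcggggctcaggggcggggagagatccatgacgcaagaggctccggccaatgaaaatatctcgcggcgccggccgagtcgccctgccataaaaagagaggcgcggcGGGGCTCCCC
A kappaB match, GGGGCTCCCC, covers positions -10 to -1, and a TATA box on the opposite strand covers -188 to -183, with position -1 as the last base before the start site. The matches do not overlap each other. Of 32851 promoter windows of the same length, 3.9% held a kappaB decamer, 7.02% a GAS element, 2.98% the response element core, 9.56% a CEBP site, 0.384% an HNF4 site and 12.4% a TATA box. A match is a description of the letters and not of binding.

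The arginases were compared next. Arg1 (chr10:24915221-24927484, minus strand), the cytosolic arginase of hepatocytes and of alternatively activated macrophages, was at 1421 and 1272 FPKM in the controls and at 1035 and 945 FPKM with 7KC. Both 7KC libraries lay below both control libraries, with group means of 1347 ± 105 and 990 ± 63.3 FPKM (SD, n = 2 each) and a log2 difference of -0.44 (SE 0.16). After rescaling to the same sum the difference was -0.24 and the groups still did not overlap. Arg2 (chr12:79130777-79156301, plus strand) was at 1.11 and 0.955 FPKM in the controls and at 1.08 and 2.03 FPKM with 7KC. Only 7KC replicate 2 stood above the others, and the log2 difference was 0.39 (SE 0.27). Arg2 rested on 16.2 to 34.3 estimated reads per library, and without 7KC replicate 2 its log2 difference was 0.05. Arg1 was thus 1284 and 1331 times Arg2 in the controls and 955 and 465 times Arg2 with 7KC, per length.

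The balance between the branches can be read as the ratio of Arg1 to Nos2 within a library. A single scaling factor per library does not change that ratio, whereas quantile normalization can. On the deposited FPKM the ratio was 1783 and 2573 in the controls and 101 and 142 with 7KC. Arg1 transcripts thus stayed the more abundant by far in whole liver in both groups. Nos2 moved this ratio more than Arg1 did, since the group means of Nos2 differed by a ratio of 13.1 and those of Arg1 by a ratio of 0.735. In whole liver, fewer cells of a type and less RNA per cell cannot be told apart, and which cells carried Nos2 or Arg1 was not measured.

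The other urea cycle enzymes were all lower on average in the 7KC group, to different degrees. Cps1 (chr1:67123026-67231259, plus strand), which makes carbamoyl phosphate from ammonia in mitochondria, was at 1343 and 1409 FPKM in the controls and at 1075 and 860.4 FPKM with 7KC. Its groups do not overlap, and the log2 difference was -0.52 (SE 0.18). Otc (chrX:10252305-10321024, plus strand) joins carbamoyl phosphate to ornithine and was at 208 and 176 FPKM in the controls and at 179.5 and 127 FPKM with 7KC. The groups overlap because 7KC replicate 1 lay just above control replicate 2, and the log2 difference was -0.34 (SE 0.20).

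Ass1 (chr2:31470207-31520672, plus strand), argininosuccinate synthase, was at 2040 and 1638 FPKM in the controls and at 1660 and 1305 FPKM with 7KC. It overlaps in the same way as Otc, with a log2 difference of -0.31 (SE 0.22). Asl (chr5:130011258-130029247, minus strand), which splits argininosuccinate to arginine and fumarate, was at 606 and 617 FPKM in the controls and at 464 and 369 FPKM with 7KC. Its control libraries had a ratio of 0.983, the nearest to 1 of the 9 genes, and it had a log2 difference of -0.56 (SE 0.16), with both 7KC libraries below both control libraries. Of the 5 urea cycle enzymes, 3 did not overlap between the groups (Asl, Cps1 and Arg1) and were also lower without overlap after rescaling to the same sum, at -0.36, -0.31 and -0.24. Of all tested genes, 27.4% were lower without overlap as deposited and 7.86% at the same sum. The median log2 difference of the 5 enzymes was -0.44 as deposited, -0.24 at the same sum and -0.19 after quantile normalization. Their summed FPKM was 5619 and 5112 in the controls and 4413 and 3607 with 7KC, or 0.82% and 0.762% of all FPKM against 0.712% and 0.647%.

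The promoters of Otc and Ass1 are shown as those of the urea cycle genes that the RefSeq table held. That of Otc lies at chrX:10252055-10252304 and that of Ass1 at chr2:31470020-31470269, both on the plus strand and both the 250 bases before the RefSeq start site. For Ass1 that start lies inside the gene as GENCODE M21 gives it, so its window includes the first bases of that gene model.
Otc: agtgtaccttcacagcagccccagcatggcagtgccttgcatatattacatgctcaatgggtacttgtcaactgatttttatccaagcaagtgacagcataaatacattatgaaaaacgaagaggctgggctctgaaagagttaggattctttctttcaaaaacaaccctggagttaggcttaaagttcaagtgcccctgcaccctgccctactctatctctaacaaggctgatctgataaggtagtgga
Ass1: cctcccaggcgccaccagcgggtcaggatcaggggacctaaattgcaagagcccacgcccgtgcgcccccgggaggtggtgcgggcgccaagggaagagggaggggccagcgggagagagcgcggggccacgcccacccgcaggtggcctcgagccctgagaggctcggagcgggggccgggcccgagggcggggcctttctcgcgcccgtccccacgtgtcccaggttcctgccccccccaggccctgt
Neither window held any of the 6 motifs searched for in Gch1, which says only that those letters are not in these windows. They differ in base composition, with 43.6% G and C for Otc and 75.6% for Ass1, against a median of 52.4% over all promoter windows and 59.2% for Gch1.

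**Figure D2:**
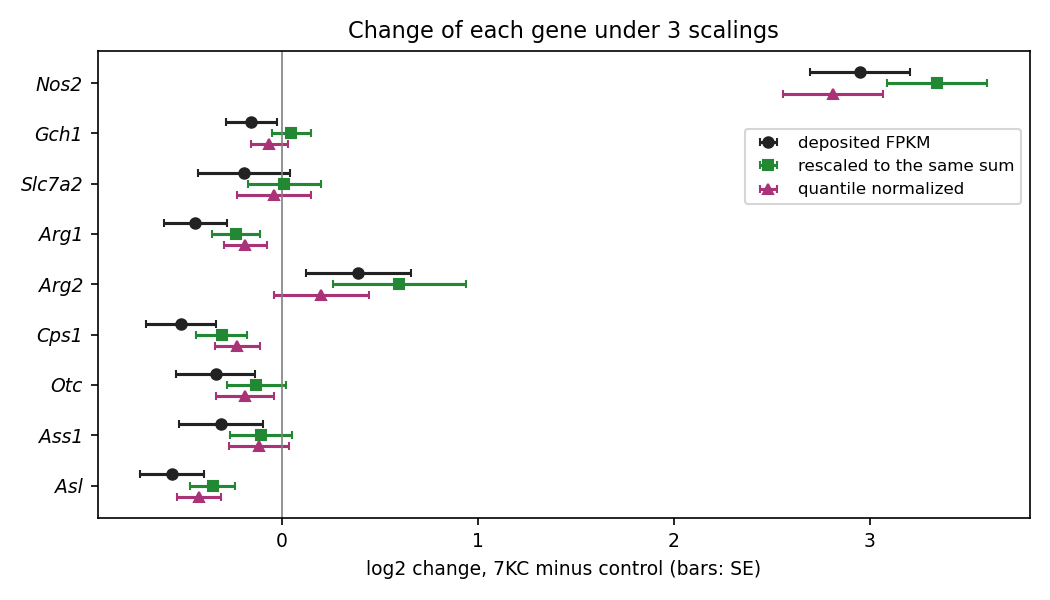
Log2 change (7KC minus control, bars are SE from limma, n = 2 per group) of the 9 genes on the deposited FPKM, after rescaling each library to the same sum and after quantile normalization. Nos2 lies between 2.81 and 3.35 on all scales, Arg1, Cps1 and Asl stay below 0, and Gch1 and Slc7a2 cross 0 at the same sum.

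Hepatocyte marker genes differed in the same direction as the urea cycle. Of 14 markers, 11 were lower without overlap, none passed the threshold, and their median log2 change was -0.52 (-0.31 at the same sum, where 8 were lower and 1 higher). The share of all tested genes lower without overlap was 27.4% as deposited. At the same sum 7.86% were lower and 46.5% higher. The geometric mean of the 14 markers was 3494 and 3193 FPKM in the controls and 2751 and 2156 FPKM with 7KC, and that of the 5 urea cycle enzymes was 867 and 796 against 688 and 549 FPKM. The urea cycle mean was 24.8% and 24.9% of the marker mean in the controls and 25% and 25.5% with 7KC, a ratio that was chosen after the values were seen. Relative to the markers, the log2 change was -0.06 for Cps1, 0.12 for Otc, 0.14 for Ass1, -0.11 for Asl and 0.01 for Arg1. Within this ratio, Ass1 was higher and Asl lower without overlap, and the other 3 overlapped. Of the 9 genes, all but Asl and Cps1 were higher in control replicate 1 than in control replicate 2, as the periportal markers were, with ratios of 1.61 for Nos2, 1.33 for Slc7a2, 1.25 for Ass1, 1.18 for Otc, 1.16 for Arg2, 1.12 for Arg1 and 1.07 for Gch1. Most markers of monocytes and recruited macrophages (8 of 10, median ratio 1.57) and of T and NK cells (10 of 11, 1.77) were also higher in control replicate 1. So were those of neutrophils (4 of 4, 1.63) and B cells (4 of 4, 2.65), but not most of those of Kupffer cells (2 of 8) or endothelial cells (1 of 8). The part of any of these marker lists in the differences was not tested.

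**Figure D3:**
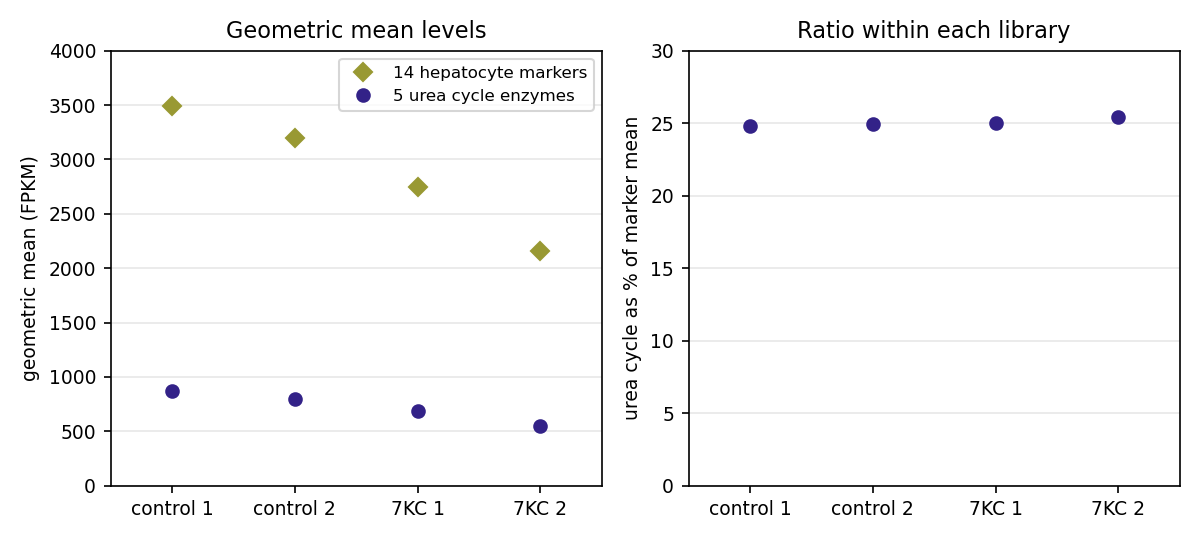
Left, geometric mean FPKM of 14 hepatocyte markers (diamonds) and of the 5 urea cycle enzymes (circles) in each library. Right, the second as a percentage of the first, which stays between 24.8% and 25.5% in the 4 libraries while both means are lower with 7KC.

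The 9 genes all passed the filter of a mean of at least 0.5 FPKM. They were selected on this comparison, so the counts that follow restate the choice and nothing is read from them. Of the 9, 1 (Nos2) was past the threshold of an adjusted p under 0.05 as higher, against 0.48% of all tested genes, and 0 were past it as lower, against 0.0244% (limma, with 2192 of all tested genes at an unadjusted p under 0.05). Of 13 alternatives, 8 kept Nos2 past that threshold. It was not past it without the filter, with a replicate block, or with control replicate 2 or either 7KC library left out. By the rule of at least a 2-fold difference without overlap, which 6.5% of genes met as higher, Nos2 was again the only member. Without overlap, 1 member was higher and 3 were lower, against 25.1% and 27.4% of all tested genes. After rescaling to the same sum 2 were higher (Nos2 and Arg2) and 3 lower, against 46.5% and 7.86% of all genes.

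The order of levels shows how far Nos2 moved among these genes. In the control group it ran from Ass1 (1839 ± 285 FPKM, SD, n = 2) through Cps1, Arg1, Asl, Otc, Slc7a2, Gch1 and Arg2 (1.03 ± 0.107) to Nos2. The libraries of Cps1 and Arg1 overlapped, as did those of Otc and Slc7a2, and the other neighbours lay apart. In the 7KC group Ass1 was again highest (1482 ± 251 FPKM) and Nos2 stood above Arg2 (1.56 ± 0.671), with no overlap between those neighbours. Arg1 and Cps1 overlapped there too, as did Otc and Slc7a2.

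The genes that surround the 9 were described in 9 lists with 99 genes, of which 87 were tested. Counts of list genes without overlap are to be read beside the shares over all tested genes, 25.1% higher and 27.4% lower as deposited and 46.5% and 7.86% at the same sum. Adjusted p-values of list genes come from the same limma fit over all genes. In the list of nitric oxide synthases and BH4 enzymes, 0 of 11 tested genes passed the threshold, 2 were higher and 5 lower without overlap, and the median log2 change was -0.20 (-0.01 at the same sum). Its lower genes include those that finish and recycle BH4. Spr, sepiapterin reductase, was at 103 and 107 FPKM in the control and 90.5 and 81.4 FPKM with 7KC (adjusted p = 0.289). Qdpr and Pcbd1, which regenerate BH4, had log2 changes of -0.36 and -0.38 (adjusted p = 0.315 and 0.306). At the same sum 3 genes of the list were higher and 2 lower without overlap. Those lower were Spr at -0.08 and Pcbd1 at -0.17, and Qdpr overlapped.

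Among 5 tested genes of amino acid transport, 0 passed and 2 were higher without overlap, with a median of -0.19 (0.01 at the same sum). These were Slc7a7, a subunit that exports arginine, with a log2 difference of 0.59 (adjusted p = 0.223), and its partner Slc3a2, with 0.20 (adjusted p = 0.421). Slc7a1, the widely expressed arginine importer, was too low to test, at 0.228 and 0.283 FPKM in the control and 0.447 and 0.382 FPKM with 7KC. Slc1a2, a glutamate transporter of pericentral hepatocytes, had a log2 difference of -0.34 (adjusted p = 0.471) with overlapping groups.

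The next list holds genes that feed the urea cycle. Of 11 tested, 0 passed, 0 were higher and 8 were lower without overlap, with a median of -0.33 (6 lower and -0.13 at the same sum). Got1, the cytosolic aspartate aminotransferase that supplies aspartate, was at 395 and 428 FPKM in the controls and at 279.5 and 180.5 FPKM with 7KC, a log2 difference of -0.87 (SE 0.23, adjusted p = 0.155). Slc25a15, the mitochondrial ornithine carrier, had -0.60 (adjusted p = 0.240). Glud1, which releases ammonia from glutamate, had -0.48 (adjusted p = 0.162), and Gpt, alanine aminotransferase, had -0.42 (adjusted p = 0.158). Nags, which makes the activator of Cps1, had -0.28 (adjusted p = 0.349) and Glul, the glutamine synthetase of pericentral hepatocytes, had -0.37 (adjusted p = 0.297), and both overlapped at the same sum. Gls2, the liver glutaminase, was at 167 FPKM in control replicate 1 and 88.9 FPKM in control replicate 2, so its groups overlap (log2 change -0.14, adjusted p = 0.846).

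Ornithine also feeds polyamines and proline. Of 15 tested genes of ornithine, polyamine and proline metabolism, 0 passed, 6 were higher and 4 lower without overlap, with a median of 0.01. At the same sum 10 were higher and 0 lower, with a median of 0.22 against 0.17 for all tested genes. Oat, ornithine aminotransferase, had a log2 difference of 0.17 (adjusted p = 0.564), and Odc1, which opens polyamine synthesis, had 0.09 with overlapping groups (adjusted p = 0.855). Smox, spermine oxidase, had 0.48 (adjusted p = 0.217) and Aldh18a1, which opens proline synthesis, had 0.58 (adjusted p = 0.275). Prodh, which breaks proline down, had -0.36 (adjusted p = 0.242).

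Creatine synthesis, another user of arginine, had its steps on opposite sides. Gatm, which moves the amidino group of arginine to glycine, was at 3.27 and 4.06 FPKM in the controls and at 6.52 and 9.13 FPKM with 7KC, a log2 difference of 0.99 (SE 0.20, adjusted p = 0.0966). Gamt, which methylates the product in liver, was at 197 and 205 FPKM in the controls and at 157 and 137 FPKM with 7KC, a log2 difference of -0.45 (SE 0.13, adjusted p = 0.175). The level of Gatm was 1.66% and 1.98% of that of Gamt in the controls and 4.15% and 6.66% with 7KC. Agmat, agmatinase, had -0.33 (adjusted p = 0.272). Of the 6 genes in that list, 0 passed, 3 were higher and 2 lower without overlap, and the median was -0.00 (0.19 at the same sum).

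The list of known inducers and signal mediators of Nos2 was the one with genes past the threshold. Of its 16 genes, all tested, 2 passed as higher, among them Irf8, and 15 were higher without overlap, with Jak1 as the exception, and the median log2 change was 0.80 (1.03 at the same sum, where 8 passed). Irf8, a factor of myeloid cells that interferon-gamma induces, rose from 10.6 and 8.16 FPKM to 26.8 and 26.2 FPKM, a log2 difference of 1.46 (SE 0.15, adjusted p = 0.0369), higher in 2 of 2 7KC libraries. Over the alternative settings the adjusted p of Irf8 ranged from 0.0130 to 0.289, and no list gene passed without the filter, without control replicate 2, without either 7KC library or with a replicate block.

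Other inducers had differences that did not pass on the deposited scale. Ifng, interferon-gamma itself, was at 0.408 and 0.362 FPKM in the controls and at 2.99 and 1.38 FPKM with 7KC (log2 change 1.53, SE 0.32, adjusted p = 0.104). Irf1, which is required for Nos2 induction in macrophages, was at 32.6 and 23.1 FPKM in the controls and at 72.4 and 52.4 FPKM with 7KC (log2 change 1.15, SE 0.23, adjusted p = 0.0965). Tnf and Il1b, inflammatory cytokines, had log2 changes of 1.52 (adjusted p = 0.127) and 1.01 (adjusted p = 0.130). The receptor chain Ifngr2 had a log2 difference of 0.66 (adjusted p = 0.0621). At the same sum Ifng, Irf1 and Ifngr2 passed (limma adjusted p = 0.0484, 0.033 and 0.0343), and Tnf and Il1b did not (0.0661 and 0.0799).

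A list of inducers and companions of Arg1 in alternative activation had 13 genes. Of 9 tested genes, 0 passed, 4 were higher and 1 lower without overlap, with a median of 0.10 (0.31 at the same sum, where 2 passed). Stat6, which carries interleukin-4 signals, had a log2 difference of 0.09 (adjusted p = 0.761), and the transcription factor Cebpb had -0.09 (adjusted p = 0.749), both with overlapping groups. Chil3, a chitinase-like protein of activated macrophages, had 1.30 (adjusted p = 0.0704) and Ccl24, an eosinophil-attracting chemokine, had 1.06 (adjusted p = 0.0596). The receptor chain Il4ra had 0.47 (adjusted p = 0.119).

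The remaining lists hold regulators of urea cycle genes in hepatocytes and the receptor of nitric oxide with its cGMP signaling. Of 9 regulators, 0 passed, 0 were higher and 6 lower without overlap, with a median of -0.25 (2 higher, 4 lower and -0.05 at the same sum). Hnf4a, the hepatocyte nuclear receptor, was at 154 and 150.4 FPKM in the controls and at 131 and 125 FPKM with 7KC (log2 change -0.25, adjusted p = 0.321), and overlapped at the same sum. Klf15, Foxo1 and Sirt5, which link nutrient state to amino acid breakdown, had log2 changes of -0.55, -0.38 and -0.46 (adjusted p = 0.191, 0.190 and 0.152). Among 5 tested genes of soluble guanylate cyclase and cGMP signaling, 0 passed and 1, Vasp, was higher without overlap (log2 change 0.99, adjusted p = 0.0833), and the median was 0.05 (0.19 at the same sum, where 1 passed). The cyclase subunits Gucy1a3 and Gucy1b3 had log2 changes of 0.21 and -0.08 with overlapping groups (adjusted p = 0.614 and 0.859).

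**Figure D4:**
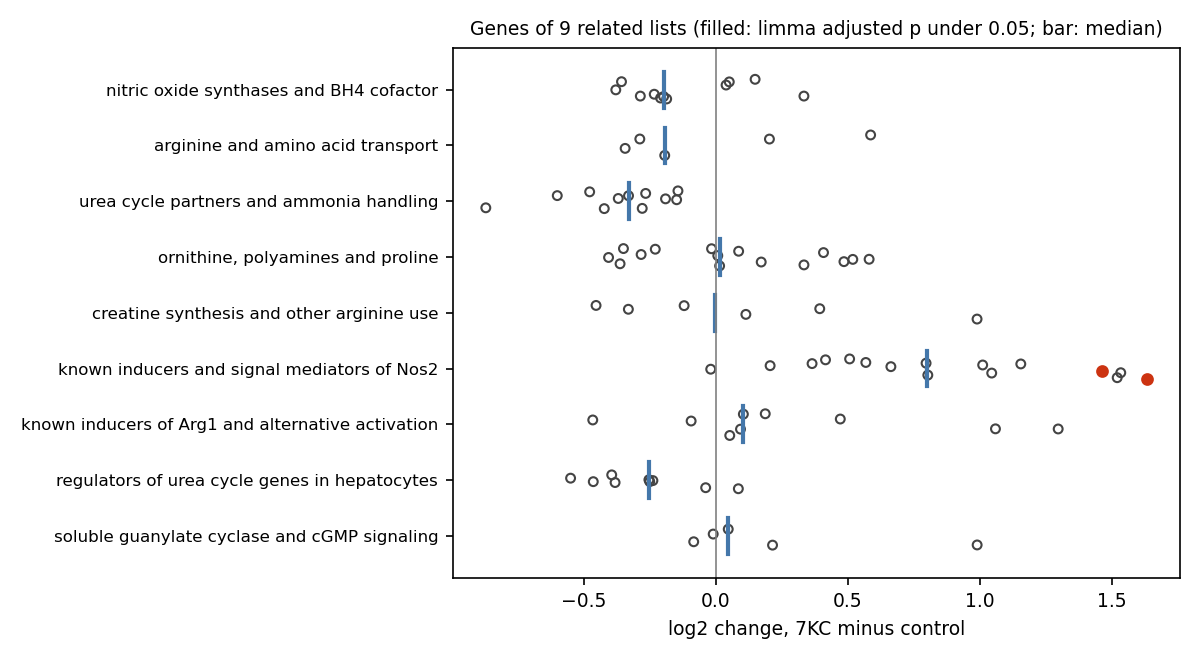
Log2 change (7KC minus control) of each tested gene in 9 lists around the nitric oxide and arginine genes, with vertical bars at the list medians and filled points for limma adjusted p under 0.05 over all tested genes. The 2 filled points, of which Irf8 lies at 1.46, are in the list of Nos2 inducers, whose median is 0.80, while the other medians lie between -0.33 and 0.10.

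Markers of monocytes and recruited macrophages and of T and NK cells were mostly higher with 7KC as well. Those of Kupffer cells and endothelial cells were not. Of 10 markers of monocytes and recruited macrophages, 8 were higher without overlap, with a median log2 change of 1.59 (10 of 10 and 1.82 at the same sum), a summed level of 419 to 652 FPKM in the control group and 1267 to 1876 FPKM in the 7KC group, and none at 0. Of 11 tested markers of T and NK cells, the sources of interferon-gamma, 11 were higher without overlap, with a median of 1.26 and a summed level of 15.5 to 23.2 against 50.2 to 58.1 FPKM. Among 8 Kupffer cell markers 3 were higher and 2 lower, with a median of -0.01 and sums of 390.1 to 460.5 against 448 to 600.0 FPKM. Of 4 tested neutrophil markers 2 were higher, with a median of 0.58 and sums of 19.2 to 34.6 against 40.1 to 42.8 FPKM. B cell markers, with 2 of 4 higher, had a median of 0.49, and 8 endothelial markers all overlapped, with a median of 0.02. Of all tested genes, 25.1% were higher and 27.4% lower without overlap as deposited, and 46.5% and 7.86% at the same sum. The counts for Kupffer cells lie near the deposited shares. None of these marker genes passed the threshold on the deposited scale, whereas 4 of the monocyte and macrophage list, 5 of the T and NK cell list and 2 of the Kupffer cell list passed at the same sum. The part of these cells in the level of Nos2 was not tested. Between the 7KC libraries, Nos2 was lower in replicate 2 than in replicate 1. The T and NK cell sum was lower there too, although Cd3d, Klrk1 and Ncr1 of that list were higher. Of the monocyte and macrophage markers, Plac8 and Ly6c2 were also lower in replicate 2. All other markers of the monocyte and macrophage list were higher in replicate 2, and so was its sum. Among them, Adgre1 was at 14.3 FPKM in replicate 1 and 28.6 FPKM in replicate 2, and Csf1r at 52.9 and 84.1 FPKM. Lyz2, which made up most of the sum, was at 995 and 1583 FPKM. These are differences between single libraries, and whether any list varies with Nos2 was not tested.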

How the data were processed

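RNA sequencing of liver gave 4 libraries, 2 per group, grouped by the sample labels. The authors made stranded libraries from messenger RNA, mapped single-end reads to mm10 and deposited FPKM, 1 value per gene symbol and library. The labels name TopHat2 2.1.1, Bowtie2 2.2.8, SAMtools 0.1.18 and Cuffdiff 2.2.1, and the published methods name other versions. The annotation and the handling of multi-mapped reads are not given in the sources used here, so values of genes with near-identical copies are uncertain. How the size of each library was set for FPKM is also not given. Rescaling to the same sum lets a few abundant genes move the rest.

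Values were compared as log2(FPKM + 0.5), which understates changes of low genes. A mean of 0.5 FPKM or more was required, and the 12299 genes left were fitted with limma 3.58.1 in R 4.3.3 (trend, group as the only term, 2 residual and 3.27 prior degrees of freedom) and adjusted by Benjamini-Hochberg at 0.05. With 2 against 2 libraries an exact permutation test cannot go below p = 0.333, so the tests rest on variance shared between genes. "No overlap" means that both libraries of a group lie above both of the other. Depth was estimated from the steps of low values with GENCODE M21 lengths: 70.6% to 72.6% of values up to 10 reads were whole to within 0.1 read, compared with medians of 13.1% to 13.8% over other depths. Errors from estimated reads cover counting error only, and these reads entered no test. Scripts were tested on simulated data.

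The 9 genes and all gene lists were chosen with earlier results of these data known. Named genes were the 9, every list gene past the threshold, the 3 with the smallest p per list, and 18 genes named by role, of which 1 is not reported here. Gene coordinates are from GENCODE M21, on the build of the files. Alternatives covered pseudocount, filter, scaling, prior, each library left out and a replicate block. Replicate numbers are shared by the groups, but deviations of equal-numbered libraries correlated at -0.141 over genes, so the numbers were not taken as pairs.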

Additional observations from a re-analysis of the deposited data

How the results depend on the processing

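Against 59 genes higher, 3 lower and 2 list genes past the threshold, a pseudocount of 1 FPKM gave 111 higher and median ratio scaling 94 higher. Without the trend there were 39 higher, 1 lower and 1 list gene, and at the same sum 402, 7 and 11. Without the filter there were 0, 1 and 0 with limma, although 2634 of 16858 genes had an unadjusted p under 0.05. Leaving out each library gave 2 to 389 higher, 1 to 52 lower and 0 to 8 list genes, with 389, 52 and 8 without control replicate 1 and 19 higher and 0 list genes without control replicate 2. The fit lacking 7KC replicate 1 gave 4, 1 and 0, and that lacking 7KC replicate 2 gave 2 higher and 0 list genes. These fits had 1126 to 2262 genes at an unadjusted p under 0.05 and assume that the lone library of a group varies like those of the other group. A replicate block, fitted with limma, gave 0, 0 and 0, with 1851 genes at an unadjusted p under 0.05. The crossed replicate block, chosen after seeing the data, gave 551, 37 and 7. The cause of these differences was not tested.

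The log2 difference of Nos2 was 3.52 with a pseudocount of 0.1 FPKM, 2.50 with 1 FPKM, 3.35 at the same sum and 2.65 to 3.25 with each library left out. The urea cycle median was -0.24 at the same sum, -0.19 after quantile normalization and -0.59 to -0.36 with each library left out. At the same sum Gch1 turned to 0.0465 and Slc7a2 to 0.0114. With each library left out Slc7a2 ranged from -0.465 to 0.0759, and it was 0.0118 without control replicate 1. For 41 named list genes, 501 of 531 values kept their direction and side of the threshold, 11 lost a call, 10 gained one and 9 changed sign without a call. Nos2 and Arg2 at low levels were limited by depth. Counts without overlap at the same sum were added after seeing the data.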

Other observations

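The tested genes whose profile over the 4 libraries lay closest to that of Nos2, by Euclidean distance of log2(FPKM + 0.5) after subtracting each gene's mean, were Cxcl9 (0.13), Ubd (0.323), Gbp5 (0.428), Gbp2 (0.521) and Gbp10 (0.585). Cxcl9, a chemokine that interferon-gamma induces, was at 29 and 22.3 FPKM in the controls and at 221 and 159 FPKM in the 7KC libraries. Ubd was at 19.9 and 15.3 FPKM in the controls and at 164 and 143 FPKM in the 7KC libraries. Those closest to Arg1 were Uchl3 (0.0244), Rsph3b (0.0443), Gsta3 (0.0467), Endog (0.0518) and Cxcl12 (0.0543). Gsta3, a glutathione transferase, was at 907 and 847 FPKM in the controls and at 679 and 625 FPKM in the 7KC libraries. The likeness is a description over 4 libraries that share 1 contrast, and it carries no test.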
